A study of Mus musculus with 24 samples.

Results

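Hepatic uptake transporters are the membrane carriers that bring bile acids, organic anions, citrate-cycle acids and vitamin C into the liver cell. A list of 7 such genes was followed here: the organic anion transporting polypeptides Slco1a4, Slco1b2 and Slco2b1, the bile acid carrier Slc10a1, the organic anion carrier Slc22a26, the dicarboxylate carrier Slc13a2 and the vitamin C carrier Slc23a2. Members were taken as every probe set, the group of probes that reads 1 transcript on an Affymetrix array, annotated to 1 of these genes alone. The annotation gave 13 probe sets for 6 of the 7 genes, out of 20380 probe sets with a single gene symbol, and Slco2b1 was not analysed here. Of the 13 probe sets, 12 passed a filter on dim signal: 2 or more arrays had to lie above their 40th percentile, called the dim limit here.

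RNA was measured in livers of 24 female mice of mixed C57BL/6x129Sv background, with 1 array for each mouse and 2 mice in each of 12 groups. Wild-type mice had their own Nr1i3 gene, which encodes mouse CAR (constitutive androstane receptor). Knockout mice (mCAR -/-) lacked it. Human CAR mice had the same deletion plus a transgene for human CAR under the mouse albumin promoter, which is active in hepatocytes, and came from 2 breeding cycles with knockout mice. Every genotype received corn oil, phenobarbital at 100 mg/kg daily, CITCO at 30 mg/kg daily or a single TCPOBOP injection of 3 mg/kg followed by corn oil. Injections into the peritoneum were given over 3 days at intervals of 24 h, and livers were taken 6 h after the last one. The sources used here give no ages, litters or hybridisation dates, and no batch could be tested.

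CAR is a nuclear receptor of the liver that binds DNA with its partner RXR and raises transcription of enzymes and carriers for foreign compounds. TCPOBOP activates the mouse receptor, CITCO the human one, and phenobarbital acts on both without binding either as a classical ligand. The uptake carriers stand on the blood side of the hepatocyte: Slc10a1 takes up conjugated bile acids with sodium, the Slco carriers take up bile acids, steroid conjugates, bilirubin and drugs without sodium, and Slc13a2 and Slc23a2 use the sodium gradient for dicarboxylates and ascorbate.

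Values are log2 expression as deposited, so a difference of 1 is a doubling. Nr1i3 lay between 6.84 and 8.0 in wild-type mice (8 arrays), 5.06 and 5.40 in knockout mice, and 5.03 and 5.60 in human CAR mice, so no other array reached the wild-type range. Where its probe set lies relative to the deletion is not given. Cyp2b10, the usual readout of CAR activity, was 4.66 and 5.22 on corn oil in wild type and reached 11.88 and 12.06 with phenobarbital and 12.24 and 12.48 with TCPOBOP. In human CAR mice it was already 8.22 and 8.82 on corn oil, and 11.37 and 11.68 with CITCO. In knockout mice it stayed between 4.45 and 5.71. All 10 hepatocyte markers with a probe set lay above the dim limit on every array. The second knockout phenobarbital array and the first human CAR phenobarbital array had the lowest median correlations to the other arrays, 0.980 and 0.970. They are called the 2 arrays that stood apart. The other 22 ran from 0.981 to 0.991. Lowest of these were the wild-type TCPOBOP arrays at 0.983 and 0.981, so the knockout array was only just below them. Both arrays that stood apart were kept, and results that turn on them are given without them too.

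A moderated F test of limma over the 12 groups called 3 of the 6 carriers at an adjusted p under 0.05, against 7.39% of the 9167 genes tested. They were Slc23a2 (adjusted p = 3.07e-05), Slc13a2 (4.13e-05) and Slc22a26 (0.0112). Slco1a4 (0.0877), Slco1b2 (0.333) and Slc10a1 (0.451) were not called.

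**Figure D1:**
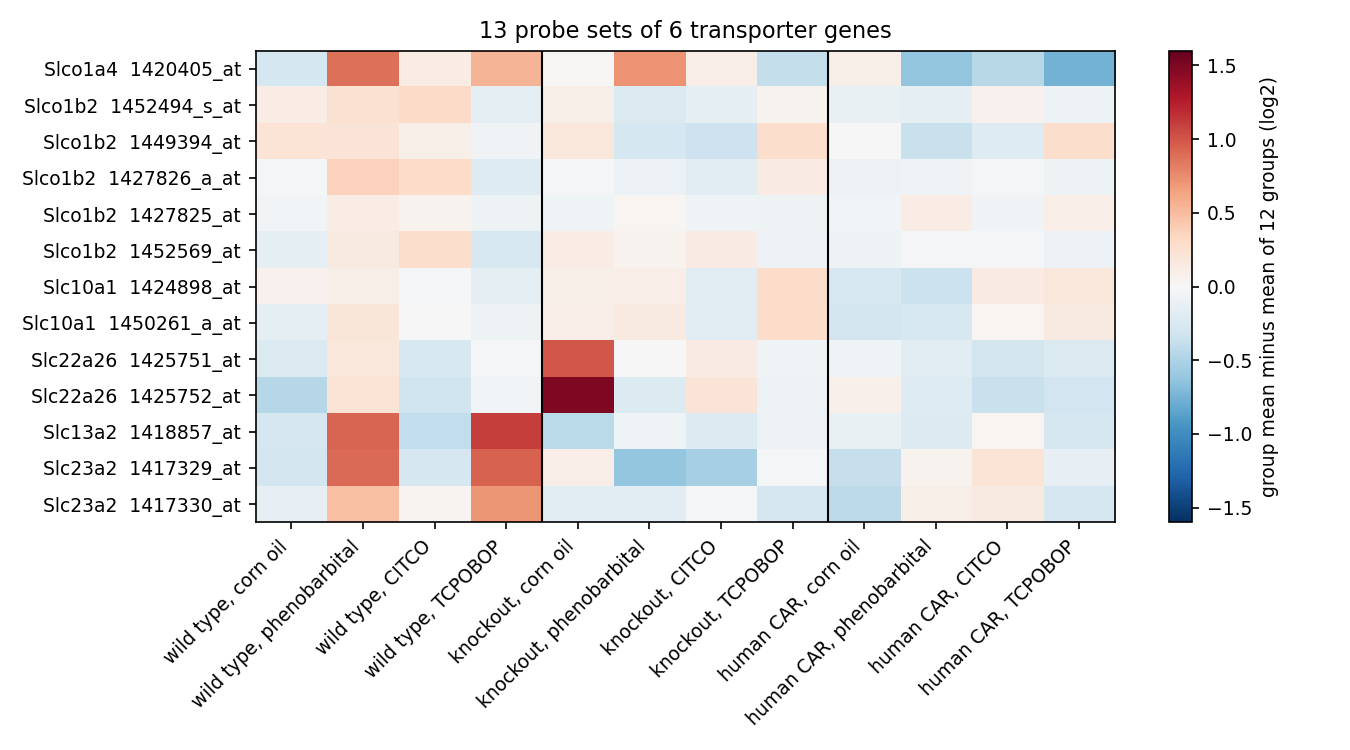
Group means of the 13 probe sets (rows) in the 12 groups (columns, in blocks by genotype), each minus the mean of that probe set over the 12 groups on the log2 scale; red is above and blue below that mean. Slc13a2 and both Slc23a2 probe sets are highest in wild-type mice given phenobarbital or TCPOBOP, and both Slc22a26 probe sets are highest in knockout mice on corn oil.

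Slc13a2 and Slc23a2 were the 2 carriers called higher with both phenobarbital and TCPOBOP in wild-type mice. Slco1a4 and Slc22a26 also read higher on all those arrays than on corn oil, without a call. Slc13a2 encodes NaDC1, which carries succinate, citrate and related acids and is best known from kidney and gut. Slc23a2 encodes SVCT2, the ascorbate carrier of most tissues outside kidney and gut epithelium. The promoters of Slc13a2 and Slc23a2 are shown because both were called in the same comparisons. Each run holds 250 bases before to 50 bases after the start of transcription, on the minus strand of GRCm38.p6, from RefSeq. Capitals mark matches to 6 searched motifs on either strand.
Slc13a2, chr11:78422185-78422484: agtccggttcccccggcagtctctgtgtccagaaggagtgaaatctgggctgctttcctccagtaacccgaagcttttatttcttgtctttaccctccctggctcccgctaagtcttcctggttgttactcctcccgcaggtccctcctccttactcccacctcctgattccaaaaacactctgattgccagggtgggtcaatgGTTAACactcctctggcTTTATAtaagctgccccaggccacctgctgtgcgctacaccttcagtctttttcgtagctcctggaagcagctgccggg
Slc23a2, chr2:132145271-132145570: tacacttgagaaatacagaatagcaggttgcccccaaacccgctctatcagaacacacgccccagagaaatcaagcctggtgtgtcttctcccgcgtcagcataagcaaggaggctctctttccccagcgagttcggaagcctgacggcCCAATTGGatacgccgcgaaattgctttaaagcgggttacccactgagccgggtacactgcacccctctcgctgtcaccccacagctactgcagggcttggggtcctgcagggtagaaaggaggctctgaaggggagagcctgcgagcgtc
In the Slc13a2 promoter the capitals are GTTAAC, a match at -46 to the HNF1-type site GTTAAN on both strands, and a TATAAA box read on the opposite strand at -29. In the Slc23a2 promoter they are a CCAAT box at -101 and an overlapping one on the opposite strand at -98. Among 27025 genes with a promoter of this length, 24.1% held GTTAAN, 14.2% TATAAA and 37.9% CCAAT. Neither window held AGGTCA or AGTTCA, found in 16.0% and 14.02% of genes, nor the repeat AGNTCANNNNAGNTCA, found in 0.133%. Those were the nuclear receptor sites searched for, and other variants of them were not. A second annotated start of Slc23a2 lies downstream with a window of 78.3% GC, against 57.3% for the window shown and a median of 52.7%, and had no match. These are letters in a window of 300 bases and not measured binding sites.

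For Slc13a2, whose gene spans chr11:78397276-78422281, the wild-type corn oil arrays read 5.16 and 5.44. Phenobarbital gave 6.40 and 6.60, TCPOBOP 6.77 and 6.58, and CITCO 5.14 and 5.22. The 4 wild-type arrays with phenobarbital or TCPOBOP did not overlap any of the other 20, which ran from 5.08 to 5.77. Those 20 lay just above the dim limits of 4.93 to 5.08.

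In knockout mice Slc13a2 was 5.08 and 5.20 on corn oil, 5.45 and 5.56 with phenobarbital, 5.26 and 5.45 with CITCO, and 5.28 and 5.66 with TCPOBOP. In human CAR mice it was 5.61 and 5.30 on corn oil, 5.38 and 5.31 with phenobarbital, 5.77 and 5.42 with CITCO, and 5.25 and 5.34 with TCPOBOP. In knockout mice every treated array lay above the corn oil pair, with changes of 0.36, 0.21 and 0.33 for phenobarbital, CITCO and TCPOBOP and a smallest adjusted p of 0.200. The human CAR groups overlapped their corn oil arrays, and none of the changes in either genotype was called.

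For Slc23a2, whose gene spans chr2:132052496-132145320, the wild-type arrays read 7.18 and 6.99 on corn oil and 7.16 and 7.06 with CITCO. They rose to 8.28 and 8.28 with phenobarbital and to 8.35 and 8.29 with TCPOBOP. Again the 4 arrays of those groups lay above all 20 others, the nearest of which was 7.88.

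Knockout mice gave 7.53 and 7.42 for Slc23a2 on corn oil, 7.42 and 7.26 with TCPOBOP, 6.92 and 6.59 with phenobarbital, and 6.83 and 6.86 with CITCO. Human CAR mice gave 7.07 and 6.93 on corn oil, 7.28 and 7.22 with TCPOBOP, 7.48 and 7.37 with phenobarbital, and 7.88 and 7.31 with CITCO. These values are from the brighter Slc23a2 probe set. On it, the knockout arrays of all 3 treatments lay below both knockout corn oil arrays, the higher TCPOBOP array only marginally so. In human CAR mice the arrays of all 3 treatments lay above both corn oil arrays.

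**Figure D2:**
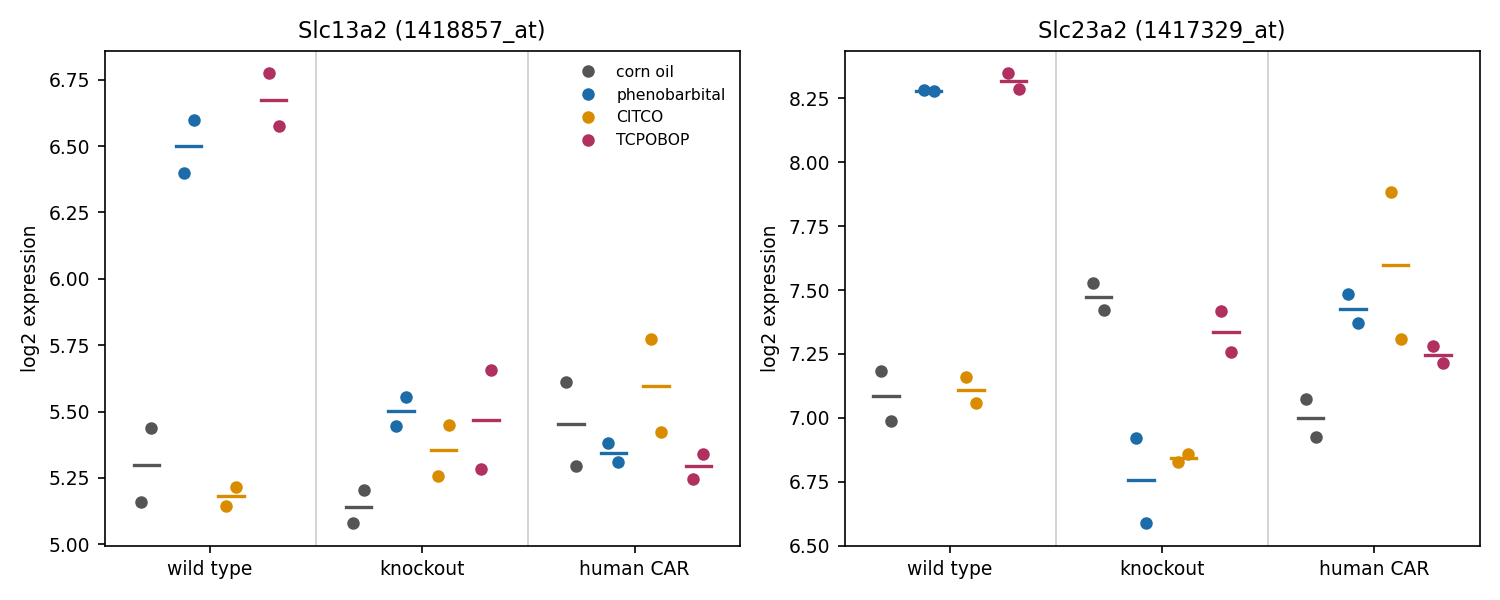
Log2 expression of Slc13a2 (left, 1418857_at) and Slc23a2 (right, 1417329_at) on each of the 24 arrays; points are mice, short lines are means of 2 mice, colours are treatments and blocks are genotypes. Wild-type phenobarbital and TCPOBOP arrays lie at 6.40 to 6.77 for Slc13a2 and 8.28 to 8.35 for Slc23a2, above every other array.

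With phenobarbital in wild type, 2 of the 6 carriers were called, both higher, where 1.47% of all genes were called. Slc13a2 rose by 1.20 (SE 0.15, adjusted p = 0.000449), a 2.30-fold change, and Slc23a2 rose by 1.20 (SE 0.15, adjusted p = 0.000449), a 2.29-fold change. With TCPOBOP in wild type the same 2 of 6 were called, where 6.14% of genes were. Slc13a2 rose by 1.37 (SE 0.15, adjusted p = 2.52e-05) and Slc23a2 by 1.23 (SE 0.15, adjusted p = 6.77e-05). Both comparisons use the same 2 corn oil arrays. All 4 calls were kept under 10 other settings and without any single array of the groups compared. Whether more RNA per cell or more cells of a type produced a rise cannot be told apart in whole liver.

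Slc23a2 has a second probe set, 1417330_at, at a lower signal. It read 5.78 and 5.56 on wild-type corn oil, 6.38 and 6.19 with phenobarbital, and 6.58 and 6.42 with TCPOBOP. Fitted with all probe sets, it rose by 0.61 with phenobarbital (SE 0.15, adjusted p = 0.0475) and by 0.83 with TCPOBOP (SE 0.15, adjusted p = 0.00209). Outside wild type its order differed in part from that of the brighter probe set. Knockout arrays with CITCO read 5.73 and 5.80, above 5.67 and 5.56 on corn oil. The knockout phenobarbital pair lay between the corn oil values and the TCPOBOP pair spanned them. In human CAR mice the phenobarbital and CITCO arrays lay above corn oil (5.21 and 5.54), while TCPOBOP gave 5.51 and 5.53. Slc13a2 has 1 probe set and so no such check.

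Differences between genotypes in these responses were tested directly. The TCPOBOP response in wild type exceeded that in knockout for Slc23a2 by 1.37 (SE 0.21, adjusted p = 0.00167) and for Slc13a2 by 1.05 (SE 0.22, adjusted p = 0.0151). With Slc22a26, 3 of 6 carriers were called in that comparison, against 1.95% of genes. The Slc13a2 call was lost without any 1 of 4 arrays (the first wild-type corn oil, wild-type TCPOBOP or knockout TCPOBOP array or the second knockout corn oil array), while that of Slc23a2 was kept without each of 8. The second Slc23a2 probe set gave 0.91 (SE 0.21, adjusted p = 0.0278).

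For phenobarbital the wild-type response exceeded that in knockout by 1.92 for Slc23a2 (SE 0.21, adjusted p = 0.000449). It is the sum of a rise in wild type and a fall in knockout. For Slc13a2 the difference of 0.84 was not called (SE 0.22, adjusted p = 0.191). Slc22a26 made 2 of 6 called here, against 0.153% of genes. On the second Slc23a2 probe set the difference was 0.59 (SE 0.21, adjusted p = 0.387), so the size of this difference varied with the probe set.

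The wild-type responses were also set against those of human CAR mice. For phenobarbital, 1 of 6 carriers was called, against 0.164% of genes: Slc13a2 responded more in wild type by 1.31 (SE 0.22, adjusted p = 0.0221), and the Slc23a2 difference was 0.77 (SE 0.21, adjusted p = 0.186). The Slc13a2 call was lost without the 2 arrays that stood apart, and without any 1 of 4 arrays: the second wild-type phenobarbital, first human CAR phenobarbital, first wild-type corn oil or first human CAR corn oil array. For TCPOBOP, a comparison added after the values were seen, 2 of 6 were called against 1.87% of genes. Slc13a2 differed by 1.53 (SE 0.22, adjusted p = 0.000689), kept without each of 8 arrays, and Slc23a2 by 0.99 (SE 0.21, adjusted p = 0.0214). The Slc23a2 call was lost without any 1 of 6 arrays: either wild-type or either human CAR TCPOBOP array, the second wild-type corn oil array or the first human CAR one.

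With phenobarbital in knockout mice 2 of 6 carriers were called, Slc23a2 and Slc22a26, both lower, against 0.731% of genes. Slc23a2 fell by 0.72 on the log2 scale (SE 0.15, adjusted p = 0.0412). The adjusted p was 0.265 without the 2 arrays that stood apart, and the call was also lost without the second phenobarbital array or either corn oil array. The second Slc23a2 probe set did not show the fall: its difference was 0.02 (adjusted p = 0.948), from 5.67 and 5.56 on corn oil to 5.63 and 5.64. With CITCO in knockout mice the first Slc23a2 probe set differed by -0.63 (SE 0.15, adjusted p = 0.179), which was not called.

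In human CAR mice no carrier was called with phenobarbital (0.665% of genes called), CITCO (0.0873%) or TCPOBOP (0%). By unadjusted p under 0.05 in the limma fit, 1 of 6 passed in each of the 3. The largest fall was that of Slco1a4 with TCPOBOP, -0.84 (SE 0.39, adjusted p = 0.741). The largest rise was that of Slc23a2 with CITCO, 0.60 (SE 0.15, adjusted p = 0.277). Without the second CITCO array it was 0.88 (adjusted p = 0.0342), resting on a lone mouse assumed to vary like the other groups. With phenobarbital Slc23a2 changed by 0.43 (SE 0.15, adjusted p = 0.138), and on its second probe set the changes were 0.52 with phenobarbital (adjusted p = 0.0798) and 0.57 with CITCO (adjusted p = 0.272). Both probe sets thus stood higher on human CAR arrays with either agent than on corn oil, without a call. For Slc13a2 the changes were -0.11, 0.15 and -0.16 with phenobarbital, CITCO and TCPOBOP, and the 95% confidence intervals ran from -0.48 to 0.47 over the 3. Against the knockout response, the CITCO response of Slc23a2 in human CAR mice was higher by 1.23 (SE 0.21, adjusted p = 0.0594) and the phenobarbital response by 1.15 (SE 0.21, adjusted p = 0.0967). Neither was called, nor was any other carrier in these 2 comparisons (0.0327% and 0.0109% of genes called), although 2 and 4 of the 6 had an unadjusted p under 0.05.

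**Figure D3:**
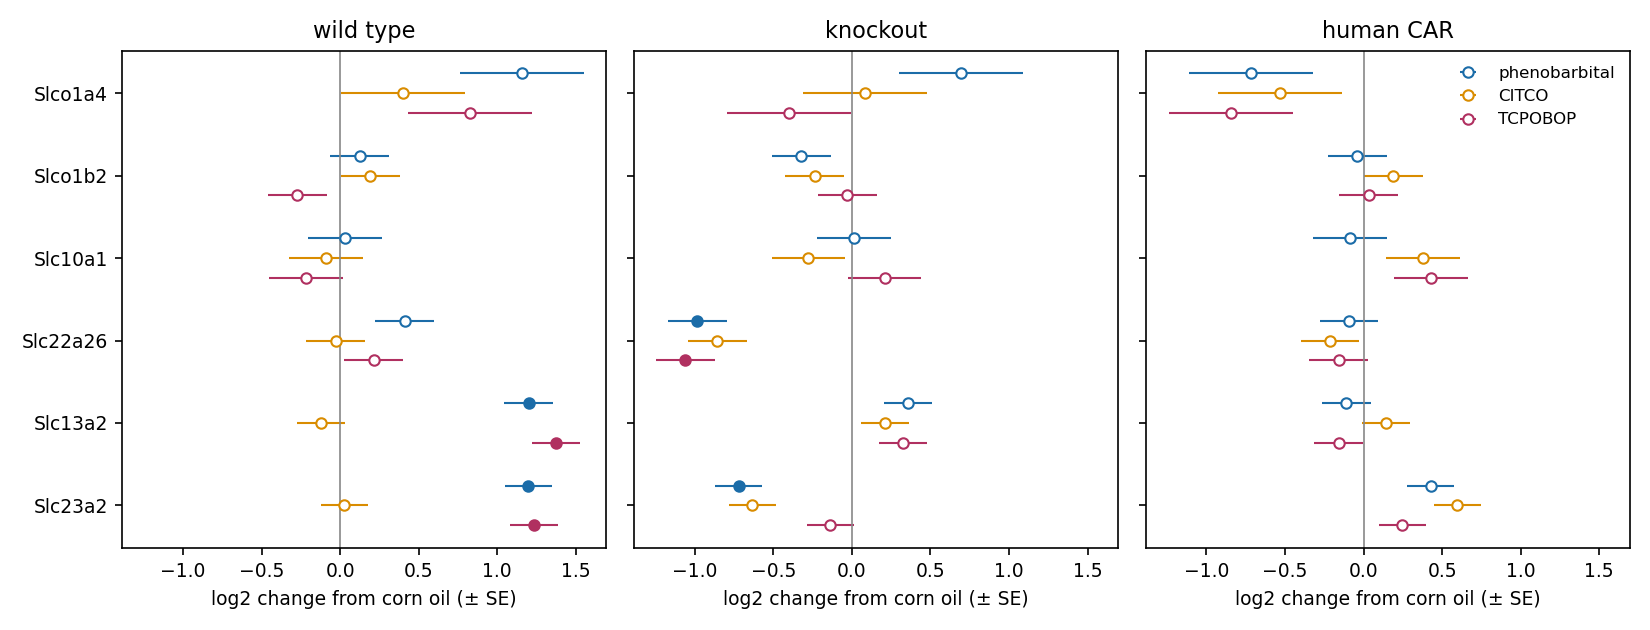
Log2 change from corn oil of the 6 carriers (rows) with phenobarbital, CITCO and TCPOBOP in wild-type, knockout and human CAR mice (panels); bars are SE of the limma fit, filled points have an adjusted p under 0.05 and open points do not. Slc13a2 and Slc23a2 are filled on the right in wild type with phenobarbital and TCPOBOP, and Slc22a26 and Slc23a2 are filled on the left in knockout.

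Averaged over treatments, 3 of 6 carriers differed between knockout and wild type, against 5.95% of genes. Slc23a2 was lower by -0.60 (SE 0.08, adjusted p = 0.000148) and Slc13a2 by -0.55 (SE 0.08, adjusted p = 0.000321), while Slc22a26 was higher by 0.35 (SE 0.09, adjusted p = 0.0360). Between human CAR and wild type 2 of 6 were called, against 2.78% of genes: Slc13a2 at -0.49 (SE 0.08, adjusted p = 0.00176) and Slc23a2 at -0.38 (SE 0.08, adjusted p = 0.0111). On corn oil alone neither gene was called in any pair of genotypes. The corn oil differences from wild type were -0.16 and 0.15 for Slc13a2 in knockout and human CAR mice, and 0.39 and -0.08 for Slc23a2, so the averaged differences do not lie in the corn oil groups. With CITCO the wild-type group mean of Slc13a2 was 5.18, against 5.35 in the knockout and 5.60 with human CAR, and the means of Slc23a2 in the same order were 7.11, 6.84 and 7.60. Only the phenobarbital and TCPOBOP groups thus had lower means of both genes in both other genotypes than in wild type.

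Averaged over genotypes, 2 of 6 carriers were called with phenobarbital, both higher, against 15.8% of genes: Slc13a2 by 0.48 (adjusted p = 0.00628) and Slc23a2 by 0.30 (adjusted p = 0.0314). The call of Slc23a2 was lost without the 2 arrays that stood apart and without any 1 of 9 single arrays: both wild-type and the first knockout and human CAR phenobarbital arrays, the second wild-type and both knockout and human CAR corn oil arrays. With TCPOBOP the same 2 were called, both higher, against 3.7% of genes: Slc13a2 by 0.51 (adjusted p = 0.00447) and Slc23a2 by 0.45 (adjusted p = 0.0108). These means hold unlike parts, since the phenobarbital changes of Slc23a2 in wild type, knockout and human CAR mice were 1.20, -0.72 and 0.43. CITCO averaged over genotypes called none of the 6 (0.0327% of genes), with 1 at an unadjusted p under 0.05.

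In the order of group means for Slc13a2, wild type with TCPOBOP (6.68 ± 0.14) and with phenobarbital (6.50 ± 0.14, SD, n = 2 each) came first and overlapped each other. The next group, human CAR with CITCO, followed at 5.60 ± 0.25 without overlap. For Slc23a2 the same groups led at 8.32 ± 0.04 and 8.28, then human CAR with CITCO at 7.60 ± 0.41, and the lowest were knockout with phenobarbital (6.76 ± 0.24) and with CITCO (6.84 ± 0.02).

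The tested genes whose log2 values most resembled those of Slc13a2 over the 24 arrays were Gstt3 (Pearson r = 0.944, Spearman rho = 0.741), Gstm1 (r = 0.930) and Fhit (r = 0.924). Gstt3 and Gstm1 encode glutathione transferases. Without the 4 wild-type arrays with phenobarbital or TCPOBOP, r with Gstt3 was 0.582 over 20 arrays. Slc23a2 most resembled Aldh1a7, an aldehyde dehydrogenase (r = 0.882, rho = 0.850, and 0.795 over 20 arrays), 4931406C07Rik (r = 0.880) and Dock8 (r = 0.867). The arrays share treatments, so these values describe a common pattern and carry no p.

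Because Slc13a2 is a kidney carrier, markers of kidney tubule were read on the same arrays. Their mean over 8 markers ran from 4.67 to 5.05 over all arrays and from 4.80 to 4.99 in wild type with TCPOBOP. Umod, Slc12a1, Slc12a3 and Lrp2 were never above the dim limit, and the other 4 lay above it on every array. None of the 4 tested markers was called with TCPOBOP in wild type. Hepatocyte markers were lowest in that group, with a mean over 10 markers of 12.55 to 12.63 against 12.76 to 12.85 on wild-type corn oil. None of those 10 was called, their median change was -0.22, and their part in the rises of Slc13a2 and Slc23a2 was not tested.

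Slc22a26 showed another pattern: it was highest in knockout mice on corn oil. It encodes an organic anion carrier of the SLC22 family and lies on chr19:7780094-7802667 (GRCm38.p6) among related genes, and whether its probe sets also read relatives was not tested. Its promoter is given for contrast with the sodium-coupled pair, with capitals as above.
Slc22a26, chr19:7802618-7802917: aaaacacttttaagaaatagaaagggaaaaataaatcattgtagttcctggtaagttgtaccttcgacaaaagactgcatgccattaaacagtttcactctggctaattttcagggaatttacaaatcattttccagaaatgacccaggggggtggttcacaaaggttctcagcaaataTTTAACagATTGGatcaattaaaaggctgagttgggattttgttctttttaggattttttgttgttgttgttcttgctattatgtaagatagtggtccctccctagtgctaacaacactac
The capitals are a GTTAAN match at -71 and a CCAAT box at -63, both on the opposite strand, and the window has 35.7% GC. It held neither AGGTCA nor AGTTCA, and no TATAAA box.

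On corn oil Slc22a26 read 7.55 and 7.01 in knockout mice, 6.01 and 6.11 in wild type, and 6.37 and 6.05 in human CAR mice. All the other 22 arrays lay between 5.76 and 6.60. Treated knockout mice read 6.20 and 6.38 with phenobarbital, 6.48 and 6.36 with CITCO, and 6.25 and 6.19 with TCPOBOP. Wild-type mice read 6.33 and 6.60 with phenobarbital, 5.96 and 6.10 with CITCO, and 6.39 and 6.15 with TCPOBOP. The treated human CAR arrays ran from 5.76 to 6.26. Only the pair of knockout corn oil arrays stood clear of the rest.

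**Figure D4:**
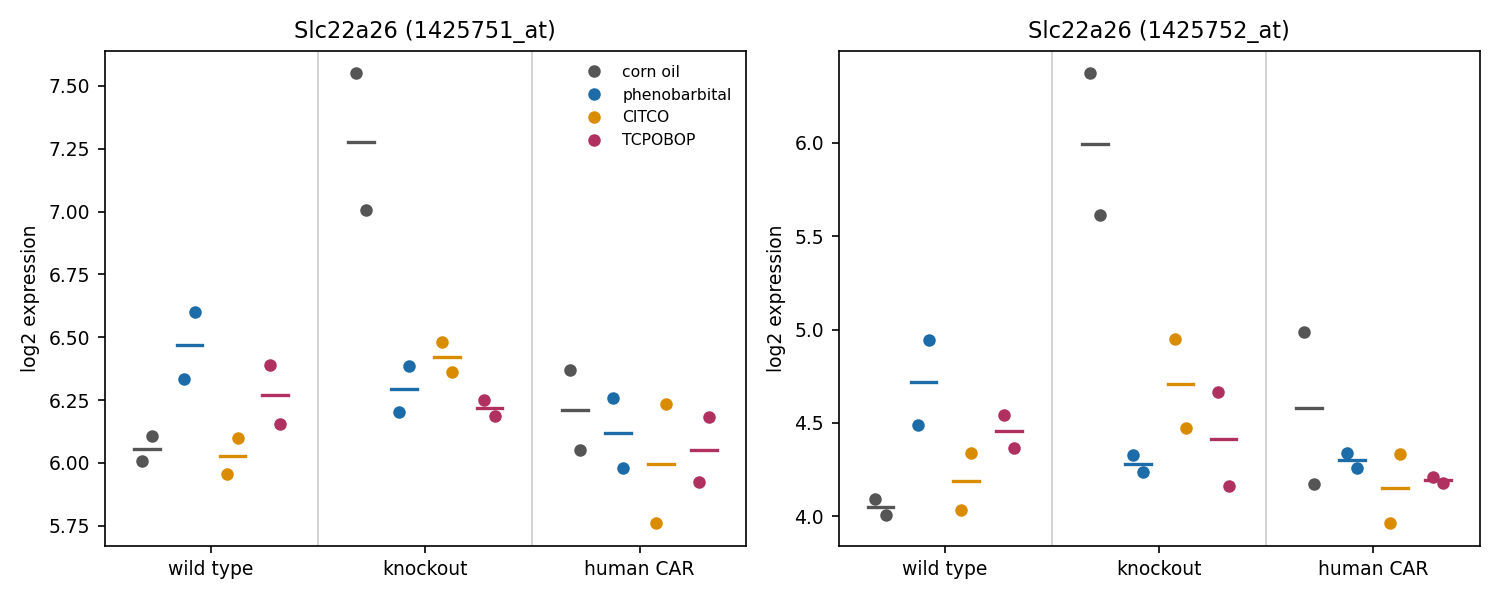
Log2 expression of the 2 Slc22a26 probe sets (1425751_at left, 1425752_at right) on each of the 24 arrays; points are mice, short lines are means of 2 mice, colours are treatments and blocks are genotypes. The knockout corn oil arrays lie at 7.55 and 7.01 on the left, above all others. On the right they lie at 6.37 and 5.61, and all others except a human CAR corn oil array lie below the dim limit.

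Between knockout and wild type on corn oil, Slc22a26 was the single carrier of 6 called, against 0.229% of genes, and was higher in knockout by 1.22 (SE 0.19, adjusted p = 0.00659). Without the first knockout corn oil array the difference was 0.95 (adjusted p = 0.178), and without the first wild-type corn oil array 1.17 (adjusted p = 0.133). Between human CAR and knockout on corn oil, it was again the single call (0.12% of genes), lower in human CAR mice at -1.07 (SE 0.19, adjusted p = 0.0311). That call was lost without the first knockout array (adjusted p = 0.312) or the second human CAR array (adjusted p = 0.259). Human CAR and wild type on corn oil differed by 0.15 (SE 0.19, adjusted p = 0.910), with no carrier called, 0.0545% of genes called and 0 of the 6 at an unadjusted p under 0.05.

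With TCPOBOP in knockout mice Slc22a26 was the single carrier called, against 0.0764% of genes, and fell by 1.06 on the log2 scale (SE 0.19, adjusted p = 0.0449). With phenobarbital in knockout mice it fell by 0.98 (SE 0.19, adjusted p = 0.0259). With CITCO the difference was -0.86 (SE 0.19, adjusted p = 0.152), and no carrier was called (0.0327% of genes), with 2 of 6 at an unadjusted p under 0.05. These 3 comparisons and both corn oil contrasts of genotypes with knockout share the 2 high knockout corn oil arrays. The TCPOBOP call was lost without the first of them (-0.79, adjusted p = 0.360) or without either TCPOBOP array. The phenobarbital call was lost without either of these 2, at -0.71 (adjusted p = 0.236) and -1.26 (adjusted p = 0.0764), without the second phenobarbital array, and, at an adjusted p of 0.0952, without the 2 arrays that stood apart.

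The wild-type response of Slc22a26 exceeded the knockout response by 1.27 for TCPOBOP (SE 0.26, adjusted p = 0.0153) and by 1.39 for phenobarbital (SE 0.26, adjusted p = 0.0476). The wild-type changes alone were 0.21 and 0.41 and were not called. Leaving out single arrays ended the TCPOBOP call for 5 of 8 arrays and the phenobarbital call for 6 of 8, and the values ran from 1.00 to 1.55 and from 1.12 to 1.67. For TCPOBOP these were the first wild-type corn oil and TCPOBOP arrays, the first knockout corn oil array and both knockout TCPOBOP arrays. For phenobarbital they were both wild-type corn oil and both wild-type phenobarbital arrays, the first knockout corn oil array and the second knockout phenobarbital array, and the call was also lost without the 2 arrays that stood apart. Averaged over treatments, Slc22a26 was the single carrier called between human CAR and knockout mice (0.338% of genes), at -0.46 (SE 0.09, adjusted p = 0.0468). This call was lost under 8 of 10 other settings and without any 1 of 10 of the 16 arrays, among them the first knockout corn oil and the second knockout phenobarbital array. The call of 0.35 between knockout and wild type was lost without any 1 of 12 of 16 arrays, these 2 included. Without the 2 arrays that stood apart it was 0.32 (adjusted p = 0.0548).

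The second probe set, 1425752_at, lay above the dim limit on 3 arrays only. They were both knockout corn oil arrays, at 6.37 and 5.61, and a human CAR corn oil array at 4.99, while all 24 ran down to 3.96. It passed the dim filter only through the knockout corn oil arrays, so no test of it is given. On the other 21 arrays, below the dim limit, its values are not levels.

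Among the corn oil groups, markers of Kupffer, stellate and endothelial cells had their highest means in knockout mice. Those of cholangiocytes and neutrophils did not. The cholangiocyte mean on corn oil was 4.62 to 4.67 in knockout, 4.66 to 4.78 in wild-type and 4.63 to 4.81 in human CAR mice. The neutrophil mean in the same order was 5.63 to 5.87, 5.55 to 5.62 and 5.68 to 6.07. The mean log2 level of 11 markers of Kupffer cells, the resident macrophages, was 8.12 to 8.27 in knockout mice on corn oil, against 7.61 to 8.10 in wild type and 7.20 to 7.62 in human CAR mice on corn oil. In knockout mice it was 6.60 to 7.39 with phenobarbital, 7.36 to 7.47 with CITCO and 6.97 to 7.55 with TCPOBOP. In knockout against wild type on corn oil 1 of 11 markers, Marco, was called higher (0.229% of all genes called), and their median difference was 0.23. With phenobarbital in knockout, 4 of 11 were called lower (Cd5l, Marco, Cd68 and C1qc; median -1.27), against 0.731% of all genes called. With TCPOBOP 1 was (Marco; median -0.99; 0.0764% of all genes), with CITCO none (median -0.75; 0.0327%), and in human CAR against knockout on corn oil 1 (Marco; median -0.79; 0.12%). Averaged over treatments, 5.95% of all genes were called between knockout and wild type. Of the 11 Kupffer cell markers 1 was higher and 2 lower in knockout (median -0.26), and 2 of 10 hepatocyte markers were higher. The mean of 9 stellate cell markers on corn oil was 6.60 to 7.0 in knockout, 6.35 to 6.45 in wild-type and 6.41 to 6.52 in human CAR mice. In knockout mice it was 6.22 to 6.37 with phenobarbital, 6.41 to 6.56 with CITCO and 6.39 to 6.43 with TCPOBOP. Wild-type mice with CITCO had 6.60 to 6.65. The mean of 12 endothelial markers on corn oil was 6.69 to 6.77 in knockout, 6.63 to 6.65 in wild-type and 6.43 to 6.50 in human CAR mice. In knockout mice it was 6.20 to 6.46 with phenobarbital, 6.51 to 6.54 with CITCO and 6.43 to 6.46 with TCPOBOP. No stellate or endothelial marker was called between knockout and wild type on corn oil or with any treatment in knockout mice. The part of these cells in the Slc22a26 and Slc23a2 results in knockout mice was not tested.

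The genes most like Slc22a26 over the 24 arrays were Il18bp (r = 0.710, rho = 0.385), Abcd2 (r = 0.665, rho = 0.633) and Mmd2 (r = 0.662). Without the knockout corn oil arrays r with Il18bp was 0.0999 and with Abcd2 0.448 over 22 arrays, so the resemblance to Il18bp rests on those 2 mice.

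Slco1a4 encodes Oatp1a4, a carrier of bile acids, steroid conjugates and cardiac glycosides on the sinusoidal membrane. Its gene spans chr6:141805438-141856284. Wild-type mice read 7.23 and 7.42 on corn oil, 8.34 and 8.63 with phenobarbital, 8.0 and 8.31 with TCPOBOP, and 6.96 and 8.49 with CITCO. The phenobarbital and TCPOBOP arrays lay above the corn oil pair, while the CITCO arrays spanned both. The array with 8.49 was also the higher of the CITCO pair for Cyp2b10, at 8.98 against 7.36. The order agreed in each wild-type group, was reversed in each human CAR group and went both ways in knockout groups. A link between the genes was not tested.

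Knockout mice gave 7.98 and 7.29 for Slco1a4 on corn oil, 8.38 and 8.27 with phenobarbital, 7.62 and 7.82 with CITCO, and 6.99 and 7.47 with TCPOBOP. Human CAR mice gave 8.20 and 7.20 on corn oil, 7.07 and 6.90 with phenobarbital, 7.49 and 6.85 with CITCO, and 7.06 and 6.66 with TCPOBOP. In human CAR mice the phenobarbital and TCPOBOP arrays lay below both corn oil arrays, opposite to wild type.

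None of these Slco1a4 changes was called, and its within-group SD of 0.452 was the largest of the 13 probe sets. In wild type the changes were 1.16 with phenobarbital (SE 0.39, adjusted p = 0.190) and 0.83 with TCPOBOP (SE 0.39, adjusted p = 0.252). Fitted on the groups compared alone, where the spread comes from 4 mice, the adjusted p-values were 0.00472 and 0.00939. In knockout mice the changes were 0.69 with phenobarbital (SE 0.39, adjusted p = 0.312), -0.40 with TCPOBOP and 0.09 with CITCO. As in wild type, both knockout phenobarbital arrays lay above the corn oil pair. In human CAR mice the changes were -0.72, -0.84 and -0.53 with phenobarbital, TCPOBOP and CITCO. Wild type exceeded human CAR mice by 1.88 in the phenobarbital response (SE 0.56, adjusted p = 0.234) and by 1.67 in the TCPOBOP response (SE 0.56, adjusted p = 0.175).

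Averaged over the 4 treatments Slco1a4 differed between human CAR and wild type by -0.74 (SE 0.20, adjusted p = 0.0549), just outside the threshold. Without the first wild-type CITCO array it was -0.94 (adjusted p = 0.00550), and the call was also gained without the first human CAR CITCO or corn oil array. Under cyclic loess normalisation of all 24 arrays it was -0.75 (adjusted p = 0.0451). Group means ran from 6.86 ± 0.28 in human CAR mice with TCPOBOP to 8.49 ± 0.21 in wild type with phenobarbital, and neighbours in the order overlapped throughout. The genes most like Slco1a4 were Tmem106b (r = 0.724, rho = 0.700), Akr1d1, a bile acid and steroid reductase (r = 0.696, rho = 0.709), and Rplp2 (r = 0.681).

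**Figure D5:**
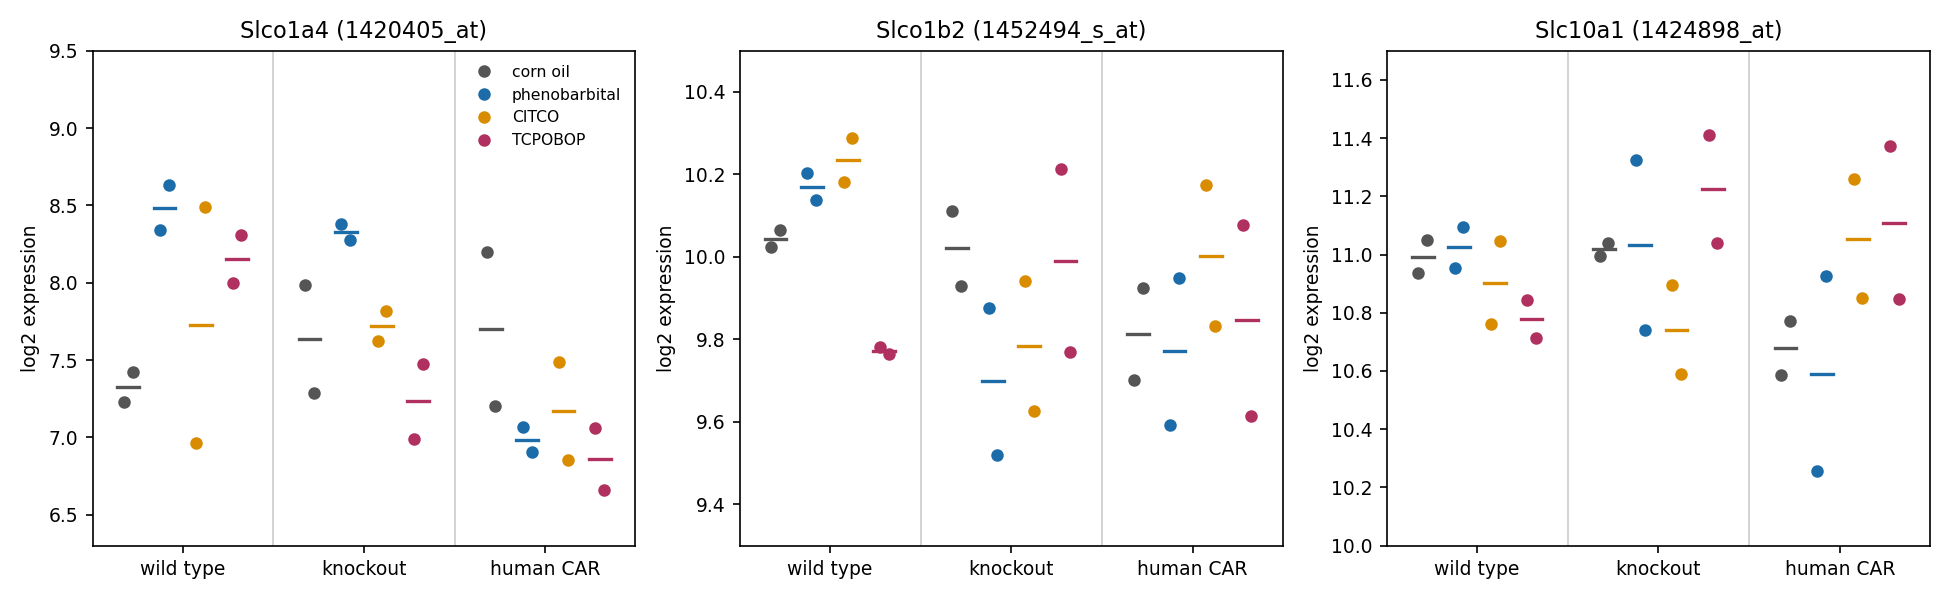
Log2 expression of Slco1a4 (left, 1420405_at), Slco1b2 (middle, 1452494_s_at) and Slc10a1 (right, 1424898_at) on each of the 24 arrays; points are mice, short lines are means of 2 mice, colours are treatments, blocks are genotypes, and each panel has its own axis range. Slco1a4 spans 6.66 to 8.63, Slco1b2 9.52 to 10.29 and Slc10a1 10.26 to 11.41.

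Slco1b2 and Slc10a1 are the main hepatocyte carriers for unconjugated and conjugated bile acids. Slco1b2 (Oatp1b2, chr6:141629452-141686646) takes up bilirubin and many drugs, and Slc10a1 (Ntcp, chr12:80953185-80968705) is the sodium-coupled bile acid carrier. Neither was called in any of the 26 comparisons. Slco1b2 read 10.02 and 10.06 on wild-type corn oil and 9.78 and 9.76 with TCPOBOP, a difference of -0.27 (SE 0.19, adjusted p = 0.449). Slc10a1 differed by -0.22 in that comparison (SE 0.23, adjusted p = 0.648). Over the 9 ligand comparisons the 95% confidence intervals of the change ran from -0.72 to 0.59 for Slco1b2 and from -0.77 to 0.93 for Slc10a1, which leaves room for changes of up to those sizes.

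Slco1b2 has 5 probe sets. The brightest, 1452494_s_at, is of a type that can bind related transcripts. It, 1427826_a_at and 1449394_at lay above the dim limit on all arrays, as did 1427825_at at 5.77 to 6.06. The fainter 1452569_at lay below it on all 24 and was left out. The group means of the brightest ran from 9.70 ± 0.25 in knockout mice with phenobarbital to 10.23 ± 0.07 in wild type with CITCO (SD, n = 2 each). The smallest adjusted p of any Slco1b2 probe set was 0.0575, for phenobarbital averaged over genotypes on 1427825_at, a change of 0.15. For Slc10a1 the 2 probe sets ran from 10.26 to 11.41 and from 9.73 to 10.76, and the smallest adjusted p was 0.286. Group means of 1424898_at lay between 10.59 ± 0.47 in human CAR mice with phenobarbital and 11.23 ± 0.26 in knockout mice with TCPOBOP, and all neighbours in that order overlapped.

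The genes most like Slco1b2 were Hsd3b3 (r = 0.797, rho = 0.821), Il18 (r = 0.777) and Bdh1 (r = 0.770), and those most like Slc10a1 were Rdh14 (r = 0.812, rho = 0.729), Bbox1 (r = 0.799) and Snx9 (r = 0.790). Hsd3b3 and Rdh14 act on steroids and retinoids, Bdh1 on ketone bodies and Bbox1 in carnitine synthesis.

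With CITCO in wild type none of the 6 carriers was called (0.0327% of genes), none had an unadjusted p under 0.05, and changes ran from -0.12 for Slc13a2 to 0.40 for Slco1a4. Cyp2b10 rose by 3.23 in that comparison (SE 0.38, adjusted p = 0.00226). The CITCO response did not pass the test for any carrier between wild type and knockout (0.0218% of genes; 2 of 6 at an unadjusted p under 0.05) or between human CAR and wild type (0%; 1 of 6).

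Other carriers and their regulators were read from lists beside these genes. With TCPOBOP in wild type 6.14% of all genes were called, so 1 call of 11 or of 18 genes is near the background. In that comparison other OATP and bile acid carriers had 0 of 6 tested called higher and 1 lower, Slco1a1, another sinusoidal organic anion carrier, which fell by 2.09 (SE 0.48, adjusted p = 0.0143). Other SLC22 carriers had 0 of 11 higher and 1 lower, the organic anion carrier Slc22a7, which fell by 1.75. Dicarboxylate and ascorbate genes had 0 of 6 higher and 1 lower, Gulo, the last enzyme of ascorbate synthesis in mice, which fell by 1.17 (SE 0.27, adjusted p = 0.0148). Hepatocyte nutrient carriers had 0 of 16 higher and 3 lower: Slc1a2 at -1.15, Slc38a3 at -1.04 and Slc27a2 at -0.89. The list medians were -0.13, -0.05, 0.26 and -0.28, against 0.01 over all genes. No rise was called in these 4 lists. Lists and members were chosen with earlier results of these data known, so no contrast with Slc13a2 and Slc23a2 is drawn.

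Among 13 tested genes of bile acid export and synthesis, TCPOBOP in wild type raised 2, the efflux pump Abcc3 by 1.73 and the epoxide hydrolase Ephx1 by 1.07, and lowered 3, the synthesis enzymes Cyp8b1 at -2.15 and Cyp7b1 at -1.94 and the phospholipid pump Abcb4 at -0.98 (median -0.36). Of 18 tested regulators 1 was lower, Cebpa at -0.55 (median -0.15). With phenobarbital in wild type, where 1.47% of all genes were called, Abcc3 (1.66) and Ephx1 (1.08) were again the 2 called of the 13, and 2 of the 18 regulators were lower, Foxa3 at -1.73 and Rxra, the partner of CAR, at -0.86. None of the other 4 lists had a call with phenobarbital in wild type. Abcc3 rose in knockout (1.05) and human CAR mice (0.72) with phenobarbital and in human CAR mice with CITCO (0.99), the comparisons in which Slc13a2 was not called.

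Averaged over treatments, where 5.95% of all genes were called, 1 of 6 dicarboxylate and ascorbate genes was called lower in knockout than in wild type, Slc23a1, the other ascorbate carrier, at -0.60 (SE 0.15, adjusted p = 0.0237). Slc23a2 differed by -0.60 too. Among other OATP carriers Slco2a1 was lower at -0.45, and among SLC22 carriers Slc22a18 at -0.23. Of 16 nutrient carriers 3 were higher, Slc38a3 at 0.67, Slc27a2 at 0.34 and Slc38a4 at 0.30. Of the 13 export and synthesis genes 2 were lower, Abcc3 at -0.90 and Ephx1 at -0.69, and the 18 regulators had 1 lower and 1 higher, Ahr at -0.69 and Foxa3 at 0.62.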

How the data were processed

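The authors summarised 24 arrays with RMA in R 2.15.0, per the submitters' processing notes, and deposited log2 values for 22690 probe sets. Medians of the arrays ran from 5.41 to 5.51 with 0 missing values, and no further normalisation was applied. RMA gives summarised probe intensity, so levels of different probe sets are not comparable. The platform annotation supplied with the series gave 1 symbol to 20380 probe sets, several to 691 and none to 1555, and 64 control probe sets were left out. Of the 20380, 20351 were matched to RefSeq by gene ID and 0 changed symbol. A gene was read by its probe set with the highest mean; 9167 of 12393 genes passed the dim filter.

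Group means of the 12 groups were fitted with limma 3.58.1 (R 4.3.3; 12 residual degrees of freedom), with Benjamini-Hochberg adjustment over all genes tested and a threshold of 0.05. There were 26 comparisons, 1 of them added after the values were seen. Probe sets beyond the first were tested in a fit of 13524 probe sets. The members and lists were chosen with earlier results of these data known. Named besides the members are Nr1i3, Cyp2b10, at most 4 called genes of each list by size, and the 3 genes of highest Pearson r with each member. The fit was tested on simulated arrays. Alternatives were a replicate block, array weights, a variance trend, cyclic loess, other filters on dim signal, averaging or fitting all probe sets, fewer groups or arrays, and leaving out each array. Same-numbered arrays showed no common direction of deviation over the groups, and whether replicate numbers paired the mice is not known. Promoters came from RefSeq (GRCm38.p6), and all 7 symbols matched. With 2 mice per group, that number limits the precision.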

Additional observations from a re-analysis of the deposited data

Results flagged for a closer look

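The responses of 3 carriers differed between genotypes in tests of the difference itself, in units of log2 change. Wild type exceeded knockout in the TCPOBOP response by 1.37 for Slc23a2 (adjusted p = 0.00167), 1.05 for Slc13a2 (0.0151) and 1.27 for Slc22a26 (0.0153). In the phenobarbital response wild type exceeded knockout by 1.92 for Slc23a2 (adjusted p = 0.000449) and 1.39 for Slc22a26 (0.0476). Wild type exceeded human CAR mice by 1.31 in the phenobarbital response of Slc13a2 (adjusted p = 0.0221). In the TCPOBOP response, a comparison added after the values were seen, it did so by 1.53 for Slc13a2 (adjusted p = 0.000689) and 0.99 for Slc23a2 (0.0214). Both Slc22a26 values contain the 2 high knockout corn oil arrays. With 2 mice in each group, no group was large enough for a check of single mice against their group.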

How the results depend on the processing

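Of 27 called values of the carriers, 243 of 270 values under other settings and 175 of 244 values without 1 array kept direction and call, and 0 were reversed. Of 2222 such values of the 129 uncalled ones, 17 gained a call. The count of carriers called moved by over 1.5 times as follows. For phenobarbital in knockout it went from 2 to 1 with the mean of probe sets and to 0 with array weights, without the 2 arrays that stood apart and with the groups compared alone. With the groups compared alone it went from 1 to 0 for TCPOBOP in knockout and for human CAR against knockout on corn oil. It went from 0 to 2 for CITCO in knockout with array weights. For human CAR against knockout averaged over treatments it went from 1 to 0 under cyclic loess, no dim filter, the mean of probe sets, all probe sets, array weights, the replicate block, without the 2 arrays and with the groups alone. For phenobarbital averaged over genotypes it went from 2 to 1 without the 2 arrays and with the groups alone, and for the phenobarbital difference of wild type and knockout from 2 to 1 with array weights, the replicate block, without the 2 arrays and with the groups alone. For wild type and human CAR it went from 1 to 0 with array weights, without the 2 arrays and with the groups alone. The differences of human CAR and knockout went from 0 to 1 for phenobarbital under cyclic loess and the replicate block, and for CITCO under both and without the 2 arrays. Smaller moves were from 2 to 3 with the groups alone for phenobarbital and TCPOBOP in wild type, from 2 to 3 under cyclic loess for human CAR against wild type averaged over treatments, and from 3 to 2 without the 2 arrays for knockout against wild type averaged. The cause was not tested, except that the groups alone and the set without 2 arrays hold fewer arrays. Without single arrays the counts ran from 0 to 2 for phenobarbital in knockout, 2 to 3 for knockout or human CAR against wild type averaged over treatments, 1 to 2 for phenobarbital averaged over genotypes, 1 to 3 for the TCPOBOP difference of wild type and knockout, 1 to 2 for the phenobarbital one and for the TCPOBOP one of wild type and human CAR, and 2 to 4 for the F test. They ran from 0 to 1 for TCPOBOP in knockout, CITCO in human CAR, both knockout contrasts on corn oil, human CAR against knockout averaged, both human CAR and knockout differences, and phenobarbital in wild type against human CAR. They were fixed at 2 for phenobarbital and TCPOBOP in wild type and TCPOBOP averaged over genotypes.

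Over 66 pairs of groups, correlations of the deviations between same-numbered arrays ran from -0.45 to 0.42 (median 0.03, with 17 over 0.1 and 11 under -0.1). Whether replicate numbers paired the mice cannot be told from these values. With the replicate block 25 of the 27 calls were kept and 2 gained, both of Slc23a2 (human CAR against knockout responses, adjusted p = 0.0234 for phenobarbital and 0.0109 for CITCO). Slc13a2 lay near the dim limit in every group except wild type with phenobarbital or TCPOBOP, so its wild-type corn oil baseline did too.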
